A study of Mus musculus with 6 samples.

Results

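Interferon-stimulated genes are the genes that cells switch on when they sense interferon, a secreted alarm signal of virus infection. A set of 31 of them was followed in RNA-seq of the mouse cochlea, the coiled part of the inner ear that senses sound. Their rows were found by matching the 31 symbols to the Ensembl gene identifiers of the deposited count table, which holds 48709 mouse genes. All 31 were present, and all 31 passed the filter on low counts, which left 20733 genes for testing.

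The study compared 3 knock-in mice, genotype Hgf del10Neo/del10Neo, with 3 wild-type mice, genotype Hgf+/+. The knock-in mice are homozygous for an allele of Hgf that lacks 10 bp of intron 5 and, by its name, carries the Neo selection cassette, and the strain models DFNB39, a form of recessive deafness in people that maps to HGF. Mice were 5 to 27 weeks old and received no treatment that the labels name. The sources used here do not tell which mouse had which age, sex or litter. Each library is the total RNA of dissected cochlear tissue after removal of ribosomal RNA, so a value is an average over every cell in the piece. In such bulk samples fewer cells of a type and less RNA per cell cannot be told apart. The 3 libraries of a group are the only replicates. A p-value sets the difference between the groups against the spread between libraries, estimated with information from all genes.

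Libraries held 34437746, 28451570 and 24005234 gene counts in knock-in 1, 2 and 3, and 24144106, 29041493 and 42312291 in wild-type 1, 2 and 3. Hgf, the targeted gene, was at 9.24, 10.4 and 10.5 CPM (counts scaled to a common library total, with TMM-scaled library sizes) in knock-in and at 15.4, 16.3 and 15.2 CPM in wild-type, without overlap, with a log2 fold change of -0.63 (SE 0.11). The difference did not pass in edgeR across all genes (adjusted p = 0.246), and it passed in DESeq2 (adjusted p = 0.01399). Neo reads numbered 71, 199 and 5 in knock-in and 5, 8 and 10 in wild-type, so the library labelled knock-in 3 was at the wild-type level of Neo while its Hgf level was that of the other knock-in libraries. Xist, the noncoding RNA that coats the inactive X, was at 758 CPM in knock-in 3 and 854 CPM in wild-type 2, and below 1 CPM in the other 4 libraries. Cochlear markers such as Otos and Coch were present, with 19 of 20 listed markers passing the filter and a summed level of 3790 to 4379 CPM in knock-in and 3573 to 4089 CPM in wild-type. Blood and marrow markers were present too: neutrophil markers summed to 11310 to 13747 CPM in knock-in and 10733 to 14804 CPM in wild-type, and erythroid markers to 9478 to 12784 CPM in knock-in and 8898 to 13534 CPM in wild-type.

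As background, type I interferons bind the receptor chains Ifnar1 and Ifnar2, whose kinases Jak1 and Tyk2 phosphorylate Stat2. With Irf9 it enters a complex that binds a response element in the promoters of its target genes, in which the letters GAAA recur. The targets include the sensors, transcription factors and signalling parts of the pathway itself, so a response can feed its own next round, and they include Usp18, which damps the receptor. Resting tissues keep a low tonic level of many of these genes.

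The letters of that element could be read in the promoters. RefSeq's promoter table for GRCm38.p6 gives 300 bases per start site, 250 before it and 50 after it, and held 25 windows for 22 of the 31 genes. The motif searched was GAAA, any pair of bases, then GAAA again, on both strands and with overlapping matches allowed. It occurred in 13 of the 22 genes (59.1%), against 1079 of 27025 genes in the whole table (3.99%). By windows this was 14 of 25, against 1131 of 32851. For each of the 14 windows with a match, the stretch of 30 bases that holds the match nearest the start site is shown. Each is written 5′ to 3′ on the strand of its gene, with every base that lies in a match in capitals, and a match on the opposite strand appears as TTTC, a pair of bases and TTTC. In 18 of the 25 windows the first 20 bases after the start site occurred in an annotated transcript of the gene. Among windows with a match, they did not in those of Bst2, Ifit3, Oas1a and Stat2, nor in the Trim30a window with the match at 3. The start sites of these windows are less certain. Positions give the first printed base of the match, counted from the start site as 1 with no position 0.
Bst2, chr8:71537577-71537606, reverse strand, match at -124: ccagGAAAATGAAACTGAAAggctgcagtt
Ddx58, chr4:40239804-40239833, reverse strand, match at 3: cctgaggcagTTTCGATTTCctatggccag
Gbp2, chr3:142620594-142620623, forward strand, match at -59: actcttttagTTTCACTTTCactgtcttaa
Ifih1, chr2:62646206-62646235, reverse strand, match at 33: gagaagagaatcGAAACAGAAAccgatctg
Ifit1, chr19:34640794-34640823, forward strand, match at -85: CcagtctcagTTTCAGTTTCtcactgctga
Ifit3, chr19:34583397-34583426, forward strand, match at -122: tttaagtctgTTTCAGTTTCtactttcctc
Ifitm3, chr7:141010723-141010752, reverse strand, match at 3: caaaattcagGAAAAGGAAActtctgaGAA
Isg15, chr4:156200865-156200894, reverse strand, match at -66: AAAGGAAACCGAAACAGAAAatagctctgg
Oas1a, chr5:120907520-120907549, reverse strand, match at -14: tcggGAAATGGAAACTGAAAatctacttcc
Oas3, chr5:120777715-120777744, reverse strand, match at -75: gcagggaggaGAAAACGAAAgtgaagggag
Rsad2, chr12:26456553-26456582, reverse strand, match at -120: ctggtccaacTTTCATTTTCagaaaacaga
Stat2, chr10:128270266-128270295, forward strand, match at -222: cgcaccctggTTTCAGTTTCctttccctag
Trim30a, chr7:104446104-104446133, reverse strand, match at 3: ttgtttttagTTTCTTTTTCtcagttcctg
Trim30a, chr7:104465210-104465239, reverse strand, match at -36: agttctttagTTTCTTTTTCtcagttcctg

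The search fixed the GAAA repeats of each stretch, while the pair between them, the flanks, the place and the strand were free to differ. In Ifit1, Ifit3 and Stat2 the 10 letters of the match were identical, TTTCAGTTTC, although Stat2's lay at -222, Ifit3's at -122 and Ifit1's at -85. In Isg15, 3 matches overlapped into 1 run, and in Bst2 and Oas1a the match ran on into a further repeat of the same letters. The motif read along the gene's own strand in 6 of the 14 windows, among them those of Isg15, Oas3 and Bst2, and along the opposite strand in 8, among them those of Ifit1, Gbp2 and Rsad2. Windows of Ifit2, Irf7, Irf9, Ifi44, Oasl1, Oasl2, Cmpk2, Dtx3l and Xaf1 held no match to these letters. Among these, the start sites of the Oasl2 window and of the Ifit2 window at chr19:34550838-34551137 are less certain too. Their first 20 bases after the start site did not occur in an annotated transcript of the gene. A match describes the letters and does not show that a factor binds there. Not matched to the table were Ifi27l2a, Mx1, Mx2, Oas2, Parp14, Parp9, Rtp4, Usp18 and Zbp1.

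Interferon RNA itself was close to the floor of detection. Of 12 interferon genes looked up, 7 had no count in any library (Ifna1, Ifna2, Ifna4, Ifna5, Ifne, Ifnl2 and Ifnl3), where 3 counts would be 0.0709 to 0.125 CPM depending on the library. Ifnb1, the first type I interferon made in most infected cells, had 0 counts over the knock-in libraries and 2 over the wild-type libraries. Ifnab and Ifnz, 2 less studied type I genes of the mouse, had 0 and 10 counts in knock-in and 1 and 9 in wild-type. Ifng, the interferon of T and NK cells, had 8 counts in knock-in and 7 in wild-type. Ifnk, a type I interferon known from skin keratinocytes, was the only one to pass the filter, with 24, 17 and 12 counts in knock-in and 11, 19 and 22 in wild-type. At this depth no difference in interferon RNA between the groups was detectable.

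The receptors were present at like levels in both groups. Ifnar1 averaged 77.5 ± 3.41 CPM in knock-in and 77.6 ± 6.59 CPM in wild-type (SD, n = 3 per group). Ifnar2 was at 43.0 CPM in knock-in and 41.1 CPM in wild-type, and the type II receptor chain genes Ifngr1 and Ifngr2 were at 86.9 and 43.1 CPM in knock-in and at 86.1 and 48.1 CPM in wild-type. Ifnlr1, a chain of the type III receptor, was at 12.6 CPM in knock-in and 12.7 CPM in wild-type, and its partner Il10rb at 28.5 CPM in knock-in and 31.8 CPM in wild-type. Over these 6 receptor genes the log2 fold changes of knock-in over wild-type lay between -0.16 and 0.06, and none passed the test.

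No interferon-stimulated gene passed the test between the groups. In edgeR's quasi-likelihood fit 0 of the 31 had an adjusted p under 0.05, where 0.0338% of all genes tested did (0.0241% lower and 0.00965% higher in knock-in), and DESeq2 and limma-voom also called 0. At an unadjusted p under 0.05 there were 2 of 31, Ifit2 lower and Ifi27l2a higher in knock-in, where 4.5% of all genes tested had such a p (1.96% lower and 2.54% higher). The groups overlapped for every one of the 31, while 8.72% of all genes tested had no overlap (4.01% lower and 4.71% higher). By the authors' deposited table, none of the 31 had an adjusted p under 0.05 (lowest 0.999671), and 25 had a negative log2 fold change. Which genes had an unadjusted p under 0.05 depended on the method. The authors' unadjusted DESeq2 p was 0.0268 for Ifit2, 0.0453 for Rsad2 and 0.0467 for Ifitm3, all lower in knock-in. For Ifi27l2a it was 0.0567.

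Small negative differences were common among the 31. In edgeR 25 of 31 had a lower fitted level in knock-in (80.6%), where 49.8% of all genes tested did, with a median log2 fold change of -0.16 for the 31 and 0.00 for all genes. The 6 with positive values were Ifi27l2a, Gbp2, Parp9, Irf9, Oas2 and Xaf1. The 31 genes correlate with each other across libraries, so these signs are not separate observations. Single libraries set the size: the median was -0.32 without knock-in 3, -0.07 without knock-in 2 and -0.08 without wild-type 2, and the number of negative values was 29 without knock-in 3 and 17 without wild-type 2. Without both Xist-rich libraries, an alternative chosen after the data were seen, the median was -0.15 and 20 of 31 values were negative.

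**Figure D1:**
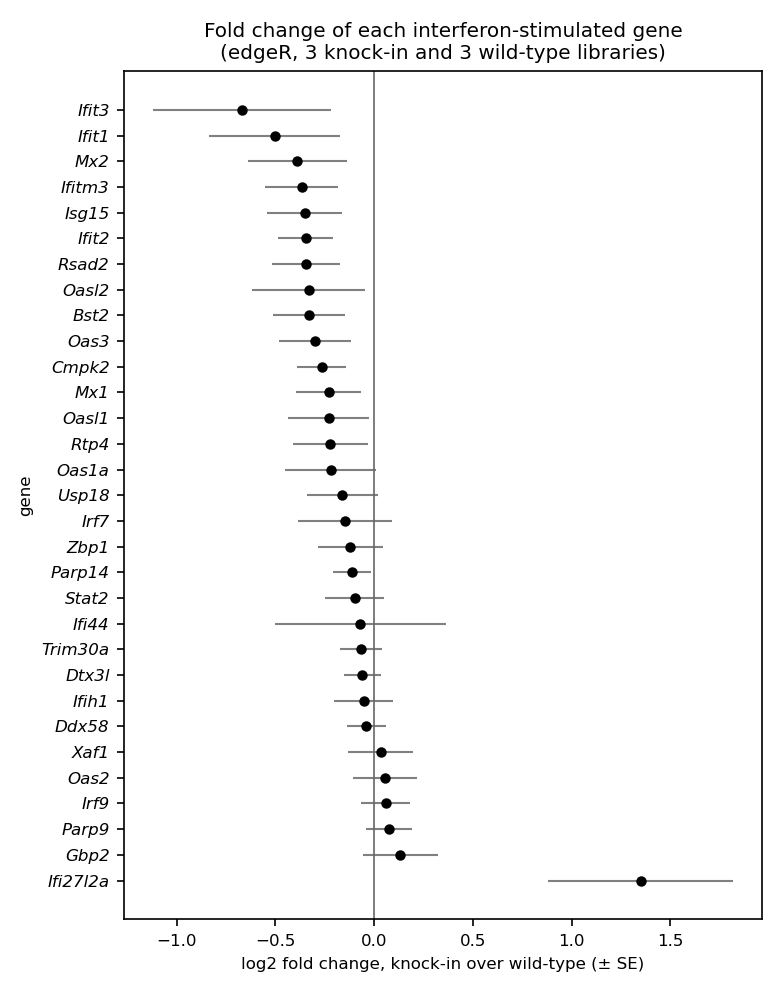
The log2 fold change of knock-in over wild-type (x axis, points) with its standard error (bars) is plotted for each of the 31 genes, sorted by value, from edgeR on 3 libraries per group. The points run from -0.67 for Ifit3 to 0.13 for Gbp2, with Ifi27l2a apart at 1.35, and 25 of 31 lie below 0.

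The transcription factors that carry the signal were present at moderate levels. Irf9, the DNA-binding part of the complex, was at 51.3, 57.7 and 66.6 CPM in knock-in and 53.2, 63.1 and 52.3 CPM in wild-type. Stat2 was at 36.1, 27.2 and 32.9 CPM in knock-in and 28.98, 40.5 and 33.5 CPM in wild-type. Irf7, the factor that amplifies interferon-alpha production and is itself induced, was at 24.6, 22.5 and 31.3 CPM in knock-in and 24.1, 41.7 and 21.1 CPM in wild-type. Wild-type 2 was the highest library of its group for all 3 genes, and the groups overlapped. Their log2 fold changes were 0.06 (SE 0.12) for Irf9, -0.10 (SE 0.15) for Stat2 and -0.15 (SE 0.24) for Irf7.

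Sensors of foreign nucleic acid had like means in both groups. Ddx58, which encodes the RNA sensor RIG-I, averaged 56.9 ± 3.21 CPM in knock-in and 58.4 ± 4.49 CPM in wild-type. Ifih1, which encodes the long double-stranded RNA sensor MDA5, averaged 47.2 ± 6.77 CPM in knock-in and 48.9 ± 8.68 CPM in wild-type. Zbp1, a sensor of Z-form nucleic acid that can start cell death, averaged 6.12 ± 1.07 CPM in knock-in and 6.69 ± 0.525 CPM in wild-type (SD, n = 3 per group for the 3 genes). Each of these differences was smaller than the larger of its SDs.

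Ifit1 and Ifit3 of the IFIT family varied widely between libraries. IFIT proteins bind viral RNA ends and block translation, and the 3 genes lie close together on chromosome 19, with Ifit2 at 34550694 to 34576419, Ifit3 at 34583531 to 34588731 and Ifit1 at 34640871 to 34650009 of GRCm38, all on the forward strand. Ifit1 was at 23.1, 27.9 and 44.7 CPM in knock-in and 23.2, 60.2 and 51.8 CPM in wild-type. Ifit3 was at 24.4, 29.2 and 60.9 CPM in knock-in and 25.7, 97.7 and 58.1 CPM in wild-type. Ifit2 was at 20.98, 20.85 and 26.0 CPM in knock-in and 24.2, 31.4 and 30.6 CPM in wild-type. Knock-in 3 was high beside its group for Ifit1 and Ifit3, wild-type 1 was low beside its group for all 3, and wild-type 1 lay at the level of knock-in 1 and 2 for Ifit1 and Ifit3. Group means for Ifit3 were 38.2 ± 19.9 CPM in knock-in and 60.5 ± 36.1 CPM in wild-type (SD, n = 3 per group). This was -0.67 on the log2 scale (SE 0.45, edgeR adjusted p = 0.966). The log2 value was -1.18 without knock-in 3 and -0.14 without wild-type 2. Ifit1 had a log2 fold change of -0.50 (SE 0.33) and Ifit2 of -0.35 (SE 0.14, edgeR unadjusted p = 0.0317 and adjusted p = 0.966).

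Ifit3b, a near-identical neighbour of Ifit3 that can share its reads, had the same profile, with 7.33, 7.51 and 14.4 CPM in knock-in and 7.03, 27.9 and 17.4 CPM in wild-type. The sources used here do not tell how reads common to Ifit3 and Ifit3b were assigned, so the level of each is uncertain.

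The OAS genes encode enzymes that make the oligoadenylate messenger of RNase L, or relatives of them, and lie on chromosome 5 in a pair of clusters. Oas1a, Oas2 and Oas3 lie between 120730333 and 120907521 on the reverse strand, and Oasl2 and Oasl1 between 114896936 and 114937915 on the forward strand. Oasl2, an antiviral relative, was the most variable of them, at 27.5, 25.7 and 42.1 CPM in knock-in and 28.9, 60.6 and 30.4 CPM in wild-type. Oas3, the largest of the enzymes, was at 30.6, 18.2 and 22.1 CPM in knock-in and 33.1, 26.9 and 27.5 CPM in wild-type. For Oasl2 knock-in 3 and wild-type 2 stood above the other 4 libraries, while for Oas3 the highest values were those of replicate 1 in both groups. Log2 fold changes were -0.33 (SE 0.29) for Oasl2, -0.30 (SE 0.18) for Oas3, -0.23 (SE 0.21) for Oasl1, -0.22 (SE 0.23) for Oas1a and 0.05 (SE 0.16) for Oas2. Oas1a has the near-identical neighbour Oas1g, at 1.65 CPM in knock-in and 2.26 CPM in wild-type, and its level is uncertain for the same reason as that of Ifit3.

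Among the dynamin-like GTPases, Mx1 acts in the nucleus against influenza-like viruses and Mx2 in the cytoplasm. Mx2 was at 4.71, 5.15 and 6.11 CPM in knock-in and 4.26, 8.92 and 7.57 CPM in wild-type, a log2 fold change of -0.39 (SE 0.25). Mx1 averaged 7.99 ± 1.29 CPM in knock-in and 9.33 ± 1.30 CPM in wild-type. Gbp2, a guanylate-binding protein gene that also answers interferon-gamma, averaged 35.3 ± 7.99 CPM in knock-in and 32.1 ± 7.18 CPM in wild-type (SD, n = 3 per group for both genes). The groups overlapped for all 3.

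Both genes for membrane restriction factors had lower means in knock-in. Ifitm3, whose protein blocks virus entry from endosomes, was at 61.1, 49.8 and 79.0 CPM in knock-in and 78.8, 98.9 and 67.2 CPM in wild-type, a log2 fold change of -0.37 (SE 0.18, edgeR unadjusted p = 0.0742 and adjusted p = 0.966). Bst2, which encodes tetherin and also marks plasmacytoid dendritic cells, was at 21.4, 17.6 and 22.1 CPM in knock-in and 26.3, 31.8 and 18.8 CPM in wild-type, a log2 fold change of -0.33 (SE 0.18). In each case the lowest wild-type library, replicate 3, lay within the knock-in range. The 7 plasmacytoid dendritic cell markers, which include Bst2, summed to 257, 239 and 242 CPM in knock-in and 267, 282 and 246 CPM in wild-type.

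Isg15 encodes a ubiquitin-like tag and Usp18 the protease that removes it. Isg15 was at 14.0, 8.22 and 12.2 CPM in knock-in and 14.8, 16.5 and 12.8 CPM in wild-type, a log2 fold change of -0.35 (SE 0.19). Only knock-in 1 lay above the lowest wild-type library. Usp18 was at 12.7, 11.9 and 17.1 CPM in knock-in and 13.0, 19.1 and 14.4 CPM in wild-type, a log2 fold change of -0.16 (SE 0.18).

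**Figure D2:**
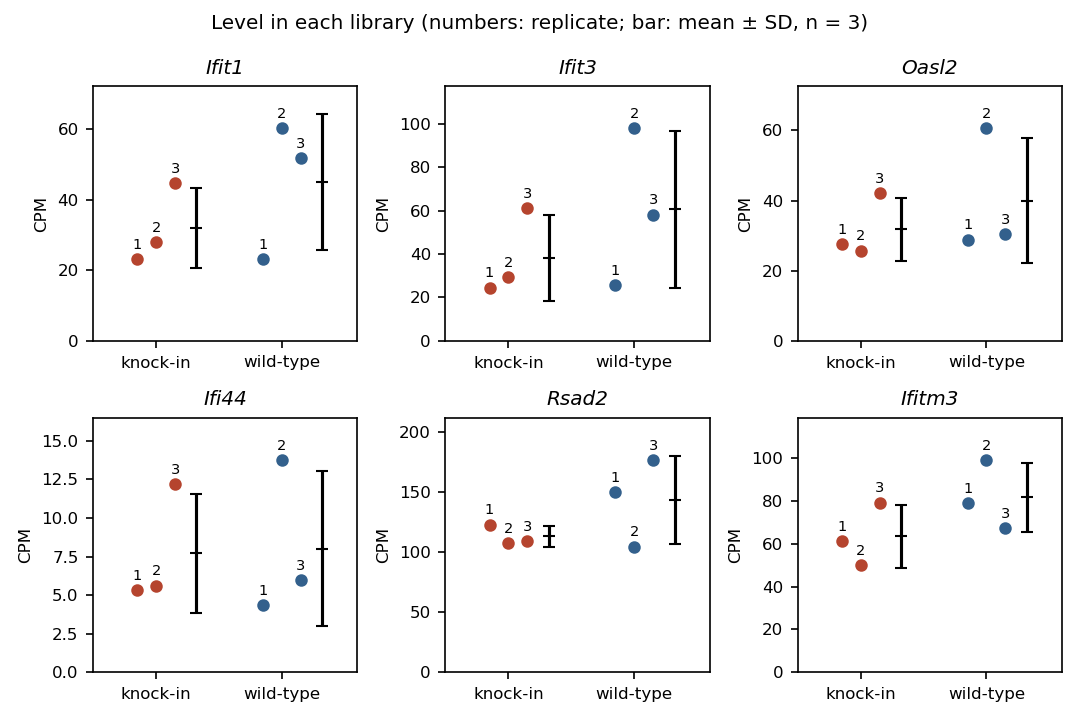
CPM (y axis, from 0) of Ifit1, Ifit3, Oasl2, Ifi44, Rsad2 and Ifitm3 is plotted for each knock-in and wild-type library, with the replicate number above its point and the group mean ± SD as a bar (n = 3). Knock-in 3 and wild-type 2 are the highest points of their groups in all panels but that of Rsad2, where wild-type 2, at 104 CPM, is the lowest of its group.

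Rsad2 and Cmpk2 are neighbours read in opposite directions on chromosome 12, from 26442746 to 26456452 and from 26469204 to 26479837. Rsad2 encodes viperin, an enzyme that makes a chain-terminating nucleotide, and Cmpk2 a nucleotide kinase. Rsad2 was at 123, 107 and 109 CPM in knock-in and 150, 104 and 176 CPM in wild-type, and wild-type 2 was the lowest of the 6 libraries. Its log2 fold change was -0.34 (SE 0.17, edgeR unadjusted p = 0.073 and adjusted p = 0.966), with 113 ± 8.42 CPM in knock-in and 143 ± 36.4 CPM in wild-type (SD, n = 3 per group). Cmpk2 was at 36.2, 32.6 and 40.0 CPM in knock-in and 37.7, 44.9 and 48.1 CPM in wild-type, a log2 fold change of -0.27 (SE 0.12, edgeR unadjusted p = 0.0581). For Cmpk2 only knock-in 3 lay above the lowest wild-type library.

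Parp9, Dtx3l and Parp14, of chromosome 16, encode ADP-ribosyltransferases and the ubiquitin ligase partner of Parp9, and were among the steadiest of the 31. Parp14 was at 89.8, 77.8 and 79.6 CPM in knock-in and 91.1, 92.1 and 84.2 CPM in wild-type. Dtx3l was at 50.5, 47.6 and 43.9 CPM in knock-in and 50.4, 48.2 and 49.5 CPM in wild-type. Parp9 was at 36.4, 41.2 and 46.8 CPM in knock-in and 36.4, 41.8 and 39.8 CPM in wild-type. Parp9 and Dtx3l start head to head and share 458 exonic bases on opposite strands, 9.4% of the exon bases of Parp9 and 8% of those of Dtx3l. No source used here gives the strand setting of the counts, so reads of that stretch cannot be told apart.

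The other induced genes were Ifi44, Rtp4, Xaf1, Trim30a and Ifi27l2a. Ifi44 was at 5.34, 5.63 and 12.2 CPM in knock-in and 4.34, 13.8 and 5.97 CPM in wild-type, with knock-in 3 and wild-type 2 above every other library. Rtp4, a receptor-transporting protein gene, averaged 16.0 ± 3.98 CPM in knock-in and 18.6 ± 3.61 CPM in wild-type. Xaf1, a pro-apoptotic gene, averaged 13.0 ± 1.52 CPM in knock-in and 12.7 ± 2.72 CPM in wild-type. Trim30a, a regulator of innate signalling in mice, averaged 44.7 ± 4.09 CPM in knock-in and 46.9 ± 3.49 CPM in wild-type (SD, n = 3 per group for the 3 genes). Of these 4, log2 fold changes were between -0.22 for Rtp4 and 0.03 for Xaf1, with Ifi44 at -0.07 (SE 0.43).

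Ifi27l2a was the exception in size. It encodes a small protein of the interferon-inducible Ifi27 family, on the reverse strand of chromosome 12 between 103442167 and 103443680. Its level was 103, 63.7 and 296 CPM in knock-in and 57.8, 77.1 and 46.5 CPM in wild-type, so knock-in 1 and 3 lay above every wild-type library and knock-in 2 within the wild-type range. The log2 fold change was 1.35 (SE 0.47), a fold of 2.55, with an edgeR unadjusted p of 0.0171 and an adjusted p of 0.966. It was 0.46 without knock-in 3, 0.68 without both Xist-rich libraries and 1.06 with Xist as a covariate. Ifi27, its neighbour on the same chromosome, was at 98.9, 101 and 152 CPM in knock-in and 86.7, 95.7 and 79.9 CPM in wild-type, a log2 fold change of 0.43 (SE 0.17), and 0.19 without knock-in 3.

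Markers of fat were highest in the libraries where Ifi27l2a was highest. The 12 adipocyte markers summed to 683, 324 and 1693 CPM in knock-in and 177, 325 and 326 CPM in wild-type. All 12 had a positive log2 fold change (median 1.57). All 12 had an edgeR unadjusted p under 0.05, where 2.54% of all genes tested were higher in knock-in with such a p. After adjustment 0 of the 12 passed. The groups did not overlap for 4 of the 12, where 4.71% of all genes tested had no overlap with knock-in higher. None of the 12 was at 0 in any library. Adipoq, the adiponectin gene, was at 57.0, 40.0 and 148 CPM in knock-in and 27.7, 34.5 and 41.8 CPM in wild-type. The part of these cells in the value of Ifi27l2a was not tested.

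**Figure D3:**
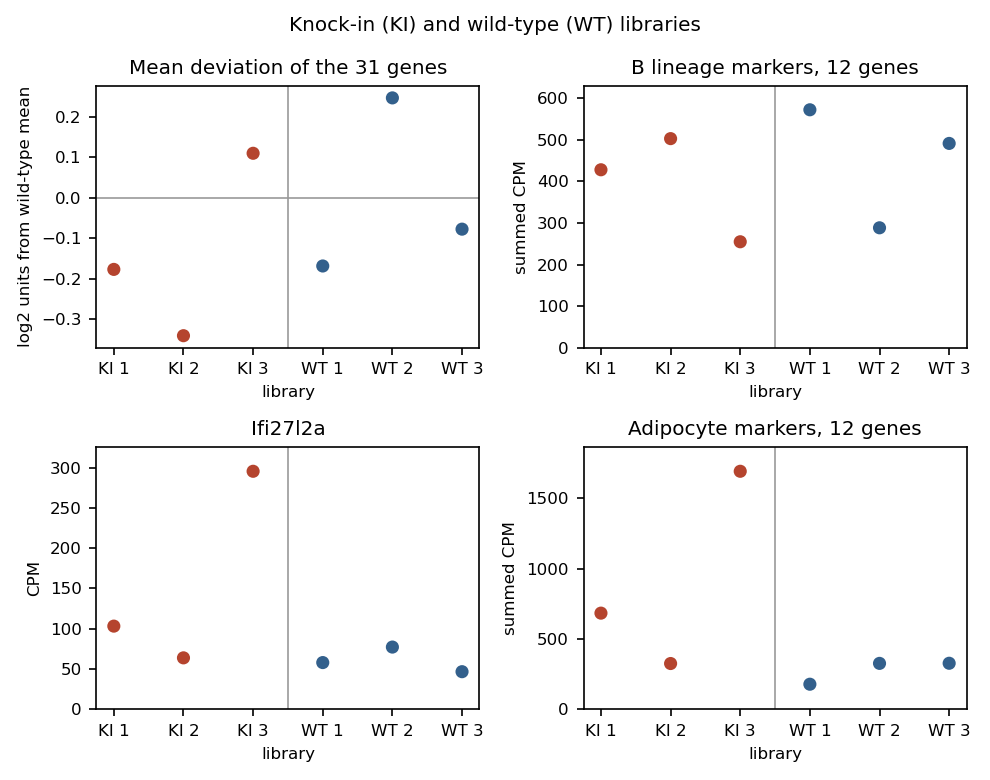
For knock-in (KI) and wild-type (WT) libraries 1 to 3, the panels plot the mean deviation of the 31 genes from the wild-type mean in log2 units, the summed CPM of 12 B lineage markers, the CPM of Ifi27l2a and the summed CPM of 12 adipocyte markers. Knock-in 3 holds the highest Ifi27l2a level (296 CPM) and adipocyte sum (1693 CPM), while knock-in 3 and wild-type 2 hold the highest mean deviation and the lowest B lineage sum of their groups.

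Levels between genes were compared per kb of exon. Ifi27l2a was the most abundant of the 31 per length, with 333 CPM per kb in knock-in and 131 CPM per kb in wild-type, and Ifitm3 came next, with 93.4 CPM per kb in knock-in and 120 CPM per kb in wild-type. Ifit3 had 21.9 CPM per kb in knock-in and 34.7 CPM per kb in wild-type, Rsad2 26.1 CPM per kb in knock-in and 33.1 CPM per kb in wild-type, and Bst2 22.6 CPM per kb in knock-in and 28.4 CPM per kb in wild-type. Low values were those of Ifi44, with 1.26 CPM per kb in knock-in and 1.31 CPM per kb in wild-type, Mx2, with 1.47 CPM per kb in knock-in and 1.91 CPM per kb in wild-type, Oasl1, with 1.55 CPM per kb in knock-in and 1.82 CPM per kb in wild-type, and Zbp1, with 1.74 CPM per kb in knock-in and 1.90 CPM per kb in wild-type. Counts behind a single value ran from 89 for Oasl1 to 7387 for Rsad2, and 30 of the 31 genes had at least 100 counts in every library.

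The median coefficient of variation within a group was higher for the 31 genes than for all genes tested. Their median coefficient of variation was 17.5% in knock-in and 17.8% in wild-type, where that of all genes tested was 12.6% in knock-in and 12.1% in wild-type. The highest library was 1.62 times the lowest at the median of the 31, and 1.45 times over all genes tested. Ifi27l2a spanned 6.36 times, Ifit3 4.01, Ifi44 3.17, Ifit1 2.61 and Oasl2 2.36 times. At the other end, Dtx3l spanned 1.15, Parp14 1.18 and Ddx58 1.19 times.

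This variation ran across the groups, along the same 2 libraries. Wild-type 2 was the highest wild-type library for 23 of the 31 genes (34.9% of all genes tested), and knock-in 3 the highest knock-in library for 21 (36.7% of all genes tested). Both held for 18 of the 31, against 16.7% of all genes tested. Averaged over the 31, the deviation from the wild-type mean in log2 units was -0.18, -0.34 and 0.11 in knock-in and -0.17, 0.25 and -0.08 in wild-type. Summed, the 31 came to 1038, 927 and 1367 CPM in knock-in and 1046, 1308 and 1120 CPM in wild-type.

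Knock-in 3 and wild-type 2 were also the 2 libraries rich in Xist and poor in B lineage markers. The 12 B lineage markers, such as Cd79a, summed to 428, 503 and 255 CPM in knock-in and 573, 289 and 492 CPM in wild-type, and none of them was at 0. T and NK cell markers summed to 68.2, 57.6 and 45.2 CPM in knock-in and 78.1, 43.8 and 61.7 CPM in wild-type, with the same 2 libraries lowest. The 12 macrophage markers summed to 669, 726 and 681 CPM in knock-in and 913, 611 and 718 CPM in wild-type, and the 10 endothelial markers to 508, 551 and 665 CPM in knock-in and 620, 624 and 507 CPM in wild-type. The 8 immediate early and stress genes were at 146, 148 and 139 CPM in knock-in and 486, 151 and 135 CPM in wild-type, so wild-type 1 stood apart. The part of sex, cell make-up and handling in the levels of the 31 genes was not tested. With Xist as a covariate, 9 of the 31 had an edgeR unadjusted p under 0.05, against 6.14% of all genes tested in that fit. After adjustment 0 of the 31 passed. The 9 were Ifit1, Ifit2, Ifit3, Oasl2, Ifitm3, Rsad2, Cmpk2 and Rtp4, lower in knock-in, and Ifi27l2a, higher, and the lowest edgeR adjusted p was 0.592.

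**Figure D4:**
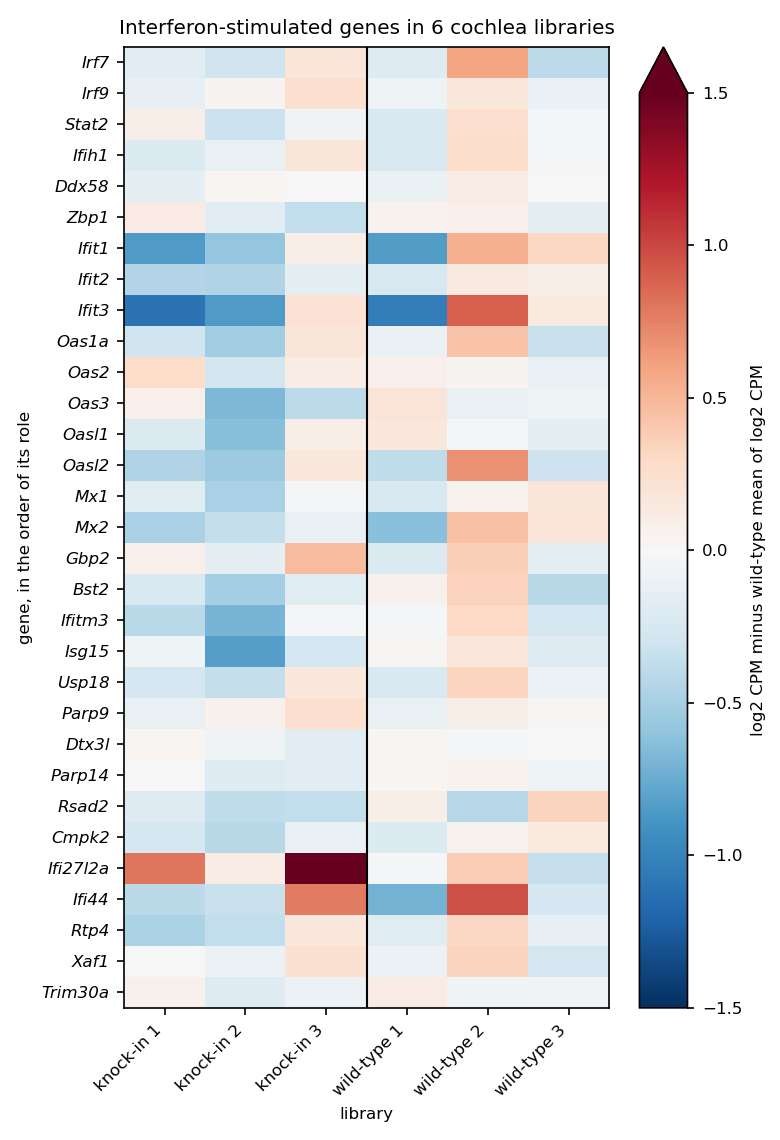
Colour gives log2 CPM minus the wild-type mean of log2 CPM for each of the 31 genes (rows, ordered by role) in the 3 knock-in and 3 wild-type libraries (columns), with values above 1.5 in the darkest red. Wild-type 2 and knock-in 3 hold most of the red, Ifit3 holds the deepest blue, and Ifi27l2a in knock-in 3 exceeds the scale.

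Correlations between the genes over the 6 libraries describe the same structure. Across 465 pairs the median Pearson r of log2 CPM was 0.45, where over all 214918278 pairs of tested genes it was -0.001. An r of at least 0.8 was reached by 16.6% of the pairs and by 3.66% of all pairs. With group means subtracted the median was 0.51, so the co-variation was present within the groups too. All pairs share the same 6 libraries, which makes these values a description of those libraries.

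A core of genes followed each other closely. Ifit1 correlated with Ifit3 at 0.98, Ifih1 with Ifi44 at 0.98, Oasl2 with Usp18 at 0.97, Ifit1 with Mx2 at 0.97, Mx1 with Cmpk2 at 0.97 and Irf7 with Xaf1 at 0.96. Oasl2 and Usp18 had the highest median r with the other 30 genes, 0.72 each, and Rtp4 had 0.68. The neighbours Ifit1 and Ifit2 correlated at 0.90 and Ifit2 and Ifit3 at 0.88, but the neighbours Rsad2 and Cmpk2 at 0.43.

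A few members stood outside the core. Dtx3l had a median r of -0.32 with the other members, Rsad2 of -0.18, Trim30a of -0.07 and Zbp1 of -0.01. The lowest of all 465 values was that of Parp9 with Dtx3l, -0.96, although their proteins form a complex and their genes start head to head. Over the 6 libraries Parp9 ranged from 36.4 to 46.8 CPM and Dtx3l from 43.9 to 50.5 CPM, so the opposite course spans a narrow range of levels.

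**Figure D5:**
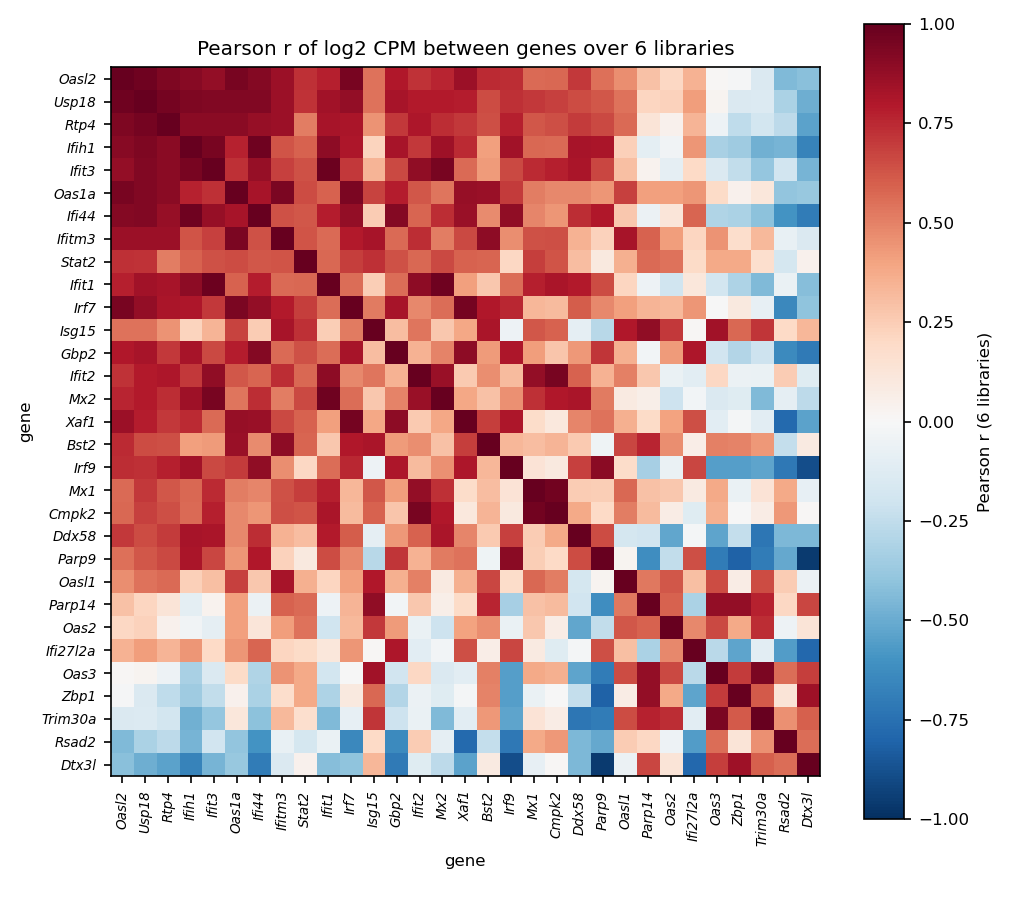
Colour gives Pearson r of log2 CPM over the 6 libraries for each pair of the 31 genes, ordered on both axes by the median r with the other genes. Red fills the corner of Oasl2, Usp18 and Rtp4, and blue the rows of Dtx3l and Rsad2, with Parp9 and Dtx3l at -0.96.

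In the wider interferon response no gene passed the test either. Of 79 further interferon-stimulated genes, 78 were tested, 0 passed in edgeR, and 50 had negative and 28 positive log2 fold changes, with a median of -0.05. An unadjusted p under 0.05 was found for 2 lower and 3 higher, where 4.5% of all genes tested had such a p, and 6 of the 78 had no overlap between groups, where 8.72% of all genes tested had none. Ly6e, a membrane protein gene that restricts coronaviruses, had the smallest p among them, with 216, 189 and 188 CPM in knock-in and 301, 254 and 220 CPM in wild-type, a log2 fold change of -0.38 (SE 0.13, edgeR unadjusted p = 0.0166 and adjusted p = 0.966), and its groups did not overlap. Lgals9, which encodes galectin-9, had -0.34. Ifi205, a DNA-binding PYHIN protein gene, had 0.97, with 3.62, 2.32 and 6.07 CPM in knock-in and 1.85, 2.59 and 1.65 CPM in wild-type, and 0.56 without knock-in 3.

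Upstream and downstream parts of the pathway differed little. Of 15 genes of JAK-STAT signalling and its brakes, 0 passed. A negative log2 fold change was found for 13 of the 15 (median -0.06), where 49.8% of all genes tested had one. Stat3 was the 1 of the 15 without overlap between groups, where 8.72% of all genes tested had none. It averaged 126 ± 2.71 CPM in knock-in and 137 ± 3.18 CPM in wild-type (SD, n = 3 per group), or -0.12 (SE 0.09) on the log2 scale. Of 20 tested genes of nucleic acid sensing upstream of interferon, 11 were negative and 9 positive, with a median of -0.03 and 0 passing. Trim25, the ubiquitin ligase that aids RIG-I, had the smallest p, with a log2 fold change of -0.27 (SE 0.13, edgeR unadjusted p = 0.0727), while Mavs, the adaptor of RIG-I and MDA5, was at 0.09 and Irf3 at 0.06. Of 15 genes of MHC class I antigen presentation, 8 were negative and 7 positive, with a median of -0.02 and 0 passing. B2m, the light chain of class I molecules, averaged 554 ± 30.5 CPM in knock-in and 540 ± 42.1 CPM in wild-type (SD, n = 3 per group).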

How the data were processed

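Cochlear total RNA of 3 knock-in and 3 wild-type mice was ribo-depleted and, per the labels' protocols, sequenced from both ends with 93-base reads. The authors mapped reads to GRCm38 (GENCODE M11) with STAR 2.5.2, per the design text and the submitters' processing notes. Which program counted the reads, and with which strand setting, is not given in the sources used here. What the authors deposited are whole-number read counts per gene and library. They also deposited their DESeq2 comparison, which per the file headers holds p-values, a test score (fold change over its error), log2 fold changes and their errors, and a mean signal (size-factor-scaled counts). Their regularized log table was left aside.

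Of 48733 rows, 24 were not mouse genes (0.00151% to 0.0045% of a library) and entered neither library sizes nor tests. Symbols, positions and exon lengths came from GENCODE M21, on the same build, for 48349 of 48709 genes. Counts were filtered with filterByExpr by group, TMM-normalized and tested with edgeR 4.0.16 (R 4.3.3, glmQLFit and glmQLFTest, two-sided, group as the only term), with Benjamini-Hochberg adjustment over 20733 genes and a threshold of 0.05. The standard error is the log2 fold change over the square root of F. Alternatives were RLE and upper-quartile scaling, no filter, a filter of 1 CPM in at least 3 libraries, DESeq2 1.42.0, voom in limma 3.58.1, the bias-adjusted quasi-likelihood, an Xist covariate, and leaving out libraries. Correlations used log2 CPM with a prior count of 2. The test script was checked on simulated counts. Floors of 3 counts cover counting error only.

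The genes and lists were chosen with earlier results of these data known. The naming rule took every member, ligand and receptor, up to 6 genes of each pathway list by smallest unadjusted p with Irf3, Mavs and B2m, and up to 3 per marker list; some items are not reported here. Stat3 is named as the one signalling gene without overlap, and Ifi27, Ifit3b and Oas1g as neighbours of members. Of the 12 erythroid symbols listed, 11 matched.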

Additional observations from a re-analysis of the deposited data

Results flagged for a closer look

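Reads of the Neo cassette, which lie outside the gene comparisons, exceeded the wild-type level in 2 of the 3 knock-in libraries. They were at 2.062 CPM in knock-in 1 and 6.994 CPM in knock-in 2, on unscaled gene counts, against at most 0.275 CPM in a wild-type library. The library labelled knock-in 3 was at 0.208 CPM. This is the library with the highest Ifi27l2a level (296 CPM), and Ifi27l2a is given with and without it.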

How the results depend on the processing

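In each of 15 alternative settings 0 of the 31 genes were called. The lowest adjusted p of any of the 31 was 0.0667 with no filter on low counts in edgeR and 0.381 to 0.9999 in the other 14 settings. Their median log2 fold change stayed negative, from -0.32 to -0.07. Over all genes, the number called lower in knock-in was 30 with no filter, 16 in DESeq2, 3 without both Xist-rich libraries (chosen after seeing the data) and 2 to 8 with any single library left out, against 5 in the reported fit. The number called higher was 46 with no filter, 12 in DESeq2, 4 with the Xist covariate and 0 to 13 with any single library left out, against 2. The number of the 31 without overlap was 0 to 7 lower and 0 to 2 higher with a library left out (14.7% to 26.1% of all genes then), and 8 lower and 1 higher without both Xist-rich libraries (34.1% of all genes). Smaller groups overlap less by construction, so these counts are to be read beside the share of all genes in the same setting.

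The direction held in every setting for 17 of the 31 genes, and 26 of 465 refitted values changed sign. Leaving out single libraries gave log2 fold changes of -0.34 to 0.21 for Irf7, -0.0453 to 0.15 for Irf9, -0.21 to 0.036 for Stat2, -0.18 to 0.0891 for Ifih1, -0.0902 to 0.0205 for Ddx58, -0.44 to 0.0281 for Oas1a, -0.0714 to 0.20 for Oas2, -0.59 to 0.10 for Oasl2, -0.0605 to 0.33 for Gbp2, -0.33 to 0.0158 for Usp18, -0.022 to 0.16 for Parp9, -0.55 to 0.56 for Ifi44 and -0.0916 to 0.22 for Xaf1. Without both Xist-rich libraries the value was 0.0645 for Irf7, 0.0184 for Stat2, 0.0086 for Ddx58, 0.0306 for Zbp1 and 0.0792 for Ifi44. The median correlation was 0.37 by Spearman and 0.31 to 0.56 with a library left out. No paired analysis was possible because the labels give no replicate numbers that the groups share. The 3 mice per group limit what can be detected, and no age, sex or litter term could be fitted from the labels.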

Other observations

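The PYHIN genes, which encode DNA-binding proteins of innate immunity, and the guanylate-binding proteins were described after their values were seen. Of 9 tested PYHIN genes, 7 had positive and 2 negative log2 fold changes of knock-in over wild-type, with a median of 0.12, and they summed to 203, 199 and 168 CPM in knock-in and 204, 144 and 182 CPM in wild-type. In this family knock-in 3 and wild-type 2 were the lowest libraries of their groups. Of 7 tested guanylate-binding protein genes other than Gbp2, 2 were positive and 5 negative, with a median of -0.16. They summed to 130, 96.2 and 138 CPM in knock-in and 114, 162 and 123 CPM in wild-type, so knock-in 3 and wild-type 2 were the highest of their groups. Gbp4 was at 21.1, 14.4 and 19.7 CPM in knock-in and 13.0, 15.3 and 14.8 CPM in wild-type, a log2 fold change of 0.35 (SE 0.15, edgeR adjusted p = 0.966). Of 7 plasmacytoid dendritic cell markers, 4 had negative and 3 positive log2 fold changes, with a median of -0.05, and Siglech was the 1 without overlap, where 8.72% of all genes tested had none. It was at 14.4, 15.4 and 14.7 CPM in knock-in and 10.7, 14.2 and 10.6 CPM in wild-type (log2 fold change 0.33, SE 0.14, edgeR adjusted p = 0.966).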
